A study of Aquilaria sinensis with 2 samples.

Results

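Ethylene receptor and downstream signaling genes of *Aquilaria sinensis*, a tree that forms agarwood after wounding, were followed in the stems of 3-year-old trees. The members are 5 unigenes, assembled transcript sequences, chosen by their identifiers out of the 89137 unigenes deposited, and they stand for 4 genes. These are *ETR1* (Zhang_Cluster61879.seq.Contig1), *EBF* (Zhang_Cluster51020.seq.Contig1), *EIN3* (Zhang_Cluster61431.seq.Contig1 and Zhang_Cluster61431.seq.Contig2) and *ERF115* (Zhang_Cluster55740.seq.Contig1), and all 5 were found in both libraries. The wounded library (W) came from stems pruned with a knife and taken 6 cm below the cut at 2, 4, 6, 8, 12 and 24 h and at 3 and 5 d. Material of these 8 times was mixed in equal parts, so W gives no time course. The healthy library (H) came from pooled RNA of stems cut from healthy trees. The number of trees in either pool is not given in the sources used here, and each condition had 1 library.

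Ethylene is a gaseous plant hormone that is made at wounds. Its receptors, of which ETR1 is the founding member in *Arabidopsis*, sit in the membrane of the endoplasmic reticulum and hold the pathway off until they bind the hormone. EIN3 is the transcription factor that carries the signal to the genes, and EBF proteins are F-box proteins that mark EIN3 for breakdown while ethylene is absent. ERFs are DNA-binding factors, and EIN3 switches on some members of this family directly. In *Arabidopsis*, ERF115 is known for promoting the replacement of damaged stem cells in the root. EIN3 is controlled largely through the stability of the protein, which transcript counts do not show.

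The gene names rest on the closest protein matches that the study lists, an apple (*Malus domestica*) receptor for *ETR1* and *Arabidopsis thaliana* proteins for the other 3 genes. The list of candidate regulators names the shorter EIN3 unigene, while the primer list ties *EIN3* to the longer one. The primers of the study are the sequences in the sources used here that tie each gene name to a unigene, and for that reason they are shown here, 5′ to 3′ in lower case. No bases are marked, and the forward primer of each pair comes first.
ETR1 forward, Cluster61879.seq.Contig1: gatgtgattggtgatgagaaacg
ETR1 reverse, Cluster61879.seq.Contig1: aaagatttggaatatcctgtggg
EBF forward, Cluster51020.seq.Contig1: caaagcagccacatcacttgagaac
EBF reverse, Cluster51020.seq.Contig1: taccagcctcaataccttcagtcaa
EIN3 forward, Cluster61431.seq.Contig2: tctgacaatctacgggagtggtg
EIN3 reverse, Cluster61431.seq.Contig2: atggtggtggcactcctttctc
ERF115 forward, Cluster55740.seq.Contig1: atggggaaagtgggcggc
ERF115 reverse, Cluster55740.seq.Contig1: acctgccgggtagtactgagcc
The ERF115 pair was the richest in G and C among these 8 primers, at 66.7% and 63.6%, against 39.1% to 54.5% in the other 6. The positions of the primers within the unigenes were not analysed here.

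The counts summed to 423466 reads in W and 432265 reads in H, and a level is given as reads per 1000000 of these sums (RPM). The reads of every unigene in W and H were compared by a chi-square test, and P at or under 0.01 was called a difference. Test and threshold follow the methods of the study, while the library sums and the unadjusted P were chosen for this work. Such a test sets 1 library against another, not wounding against health, and none of the differences could be checked in a replicate. The study's own count of differing unigenes was far larger and included every unigene seen in 1 library only. Most of the differing unigenes that it sorted into functional classes were higher in W. Intervals are exact 95% intervals, Clopper-Pearson for levels, shares and ratios and conditional exact for odds ratios. They hold counting error alone, because each condition had 1 library. PCR-amplified cDNA was read without molecular identifiers, so copies of 1 molecule may count as separate reads. The intervals may then be too narrow. Across all unigenes 4.40% passed, 1.84% higher and 2.55% lower in W, and 28.1% passed among the 8344 whose reads in W and H summed to 20 or more. Unigenes seen in W and in H, with a sum of 10 or more, had a median log2 ratio of 0.17, which is a ratio of 1.12. The split of the calls depended on this, with 1644 higher and 2274 lower in W as counted and 992 higher and 2947 lower in W after TMM scaling, which sets the library sizes by a trimmed mean of the ratios. The unigenes carry no annotation in the deposited counts, so markers of stem cell types were not checked. In whole stems, fewer cells of a type and less RNA per cell cannot be told apart.

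The receptor and the ERF were less abundant in W at the unadjusted threshold, and the genes between them in the pathway did not pass the test. *ERF115* was nearly absent from W, with 1 read there against 84 in H. *ETR1* had 39 reads in W and 77 in H, and its share was 1.93-fold lower in W. *EIN3* was the most abundant of the 4 genes in W, with 85 reads there and 96 in H. *EBF* was the scarcest of the 4 genes in H, with 14 reads in W and 11 in H. Of the 5 unigenes, 2 were thus lower in W, 0 were higher and 3 did not pass, against the 4.40% of all unigenes and the 28.1% of those with at least 20 reads given above. With Benjamini-Hochberg adjustment over all unigenes 1 of these 2 calls was left, that of *ERF115*. Of all unigenes, 1.54% passed after this adjustment. Of the 5 unigenes, 4 had at least 20 reads. Other unigenes with reads within 1.5-fold passed at 45.9% for *ETR1*, 40.2% for *ERF115* and 49.6% for the longer EIN3 unigene. At the depth of *EBF* 17.6% passed, and at that of the shorter EIN3 unigene 0%. The study lists the 4 genes among regulators that it describes as differentially expressed in these libraries. The number of calls among them is therefore not independent evidence.

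**Figure D1:**
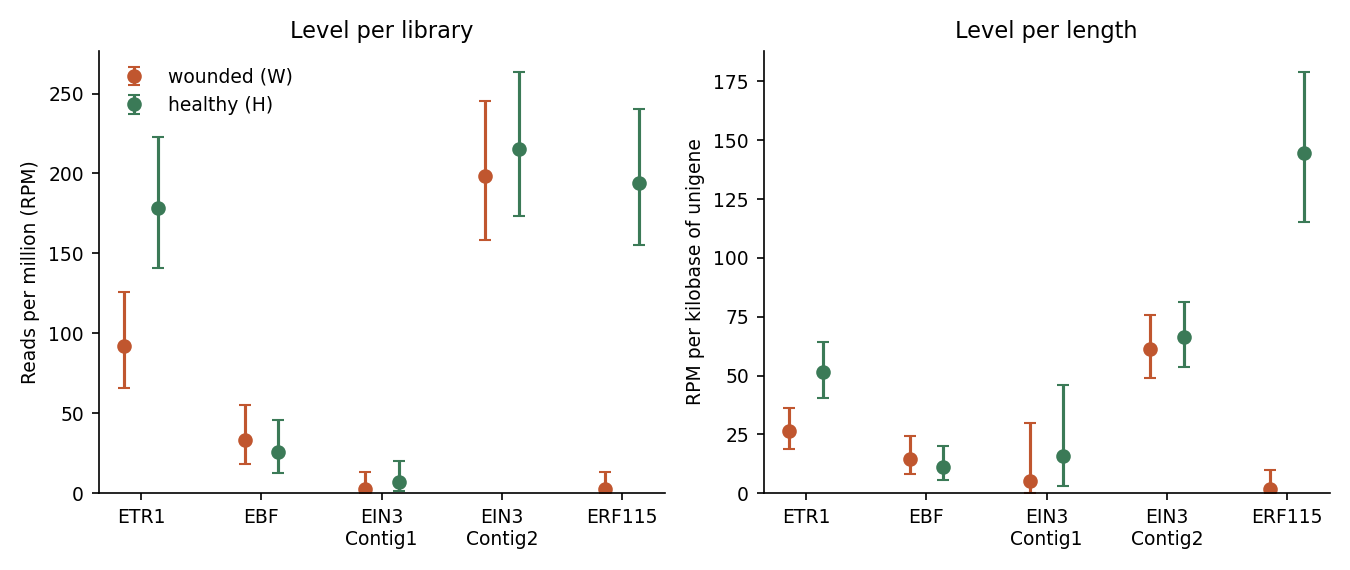
Level of each of the 5 unigenes in the wounded (W) and healthy (H) library, in RPM on the left and in RPM per kilobase of unigene on the right. Points are single libraries and bars are exact 95% intervals of counting error. ERF115 lies at 2.36 RPM in W and 194 RPM in H, while EIN3 Contig2 lies at 198 RPM in W and 215 RPM in H.

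*ETR1* encodes the receptor at the head of the pathway. It is the longest of the 5 unigenes at 3472 bp, longer than 99.8% of all unigenes. It had 39 reads in W and 77 in H, or 92.1 RPM in W (95% interval 65.5 to 125.9) and 178 RPM in H (95% interval 140.6 to 222.6), and these intervals do not overlap. The share in W over that in H was 0.517 (95% interval 0.342 to 0.770), and the chi-square test gave P = 6.31e-04. With this number of reads, a ratio of 0.601 or less was needed to pass in this direction. After Benjamini-Hochberg adjustment over all unigenes, the adjusted P of the chi-square test was 0.0325, above the threshold that 1.54% of all unigenes then met, and *ETR1* no longer passed. Nor did it pass with adjustment over all clusters, at 0.0240. Adjusted over the unigenes with at least 10 reads it was 0.00609, and the adjusted or unadjusted P ran from 3.04e-05 to 0.0325 over all alternatives. A difference of this size was common among unigenes of like depth. Of the 1148 other unigenes with 78 to 174 reads, 45.9% passed the same test and 25.3% had a log2 ratio at or below that of *ETR1*.

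*EBF*, whose protein product is the negative regulator of EIN3, had 14 reads in W and 11 in H. Its level was 33.1 RPM in W (95% interval 18.1 to 55.5) and 25.5 RPM in H (95% interval 12.7 to 45.5), and the intervals overlapped over most of their length. W over H was 1.30 (95% interval 0.548 to 3.16), with P = 0.515 by the chi-square test and P = 0.554 by Fisher's exact test. At 25 reads only a ratio of at least 3.23, or a share 3.92-fold lower in W, would have passed, so a smaller difference was not detectable at this depth. Among the 5784 other unigenes with 17 to 37 reads, 60.5% had a log2 ratio at or below that of *EBF*, which puts it near the middle of its class.

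*EIN3*, the transcription factor that EBF acts on, was assembled as 2 unigenes of 1 cluster, and nearly all its reads fell on the longer one. Cluster61431.seq.Contig2, of 3238 bp, had 84 reads in W and 93 in H, or 198 RPM in W (95% interval 158.2 to 245.6) and 215 RPM in H (95% interval 173.7 to 263.6). Cluster61431.seq.Contig1, of 440 bp, had 1 read in W and 3 in H, which is 1.18% of the EIN3 reads in W and 3.12% of those in H. No split of 4 reads could have passed the test, so a difference of the shorter unigene was not detectable at this depth. The sum of both gave W over H of 0.904 (95% interval 0.667 to 1.22), and with reads summed in the same way over every cluster, where 5.30% of clusters passed, the chi-square test gave P = 0.497. For the sum, a ratio of 0.674 or less, or 1.48 or more, would have passed, so the reads of *EIN3* bound a difference more closely than those of *EBF*. The ratio was 0.922 for the longer unigene alone and 0.340 for the shorter one, where it rests on 4 reads.

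*ERF115*, the DNA-binding factor placed last in the order, had the lowest ratio of the 5 unigenes. It had 1 read in W and 84 in H, on a unigene of 1343 bp, or 2.36 RPM in W (95% interval 0.0598 to 13.2) and 194 RPM in H (95% interval 155 to 240.6). The level in W was that of a single read, and the intervals were far apart. W over H was 0.0122 (95% interval 3.04e-04 to 0.0696). The chi-square test gave P = 5.16e-19, and 2.92e-16 after Benjamini-Hochberg adjustment over all unigenes. By reads, *ERF115* was among the 0.562% most abundant unigenes of H, while in W any unigene with reads had at least as many. The interval ends at a share 14.4-fold lower in W. The size of the fold rests on the single read. With 1 read added to each library the ratio was 0.0240, and the deposited scaled values, which include such an added read, stand at 3.7 in W and 160.2 in H, a ratio of 0.0231. A ratio this low was rare among unigenes of like depth, since 25 of the 1767 other unigenes with 57 to 127 reads, 1.41%, had a log2 ratio at or below it. By quantitative PCR the study reported a rise of most regulators it tested in calluses given methyl jasmonate, *ERF115* and *EIN3* among them. *ETR1* and *EBF* were not among the few that it reported to fall. The study gave no such measurement of *ERF115* in stems. It also reported a rise of genes of sesquiterpene synthesis in wounded stems, although several of them had fewer reads in W. Those stems were taken 5 d after pruning, while W mixed 8 times. The calluses differed from W in tissue and treatment too. The results thus differ in samples and times as well as in method, and why they differed was not tested.

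**Figure D2:**
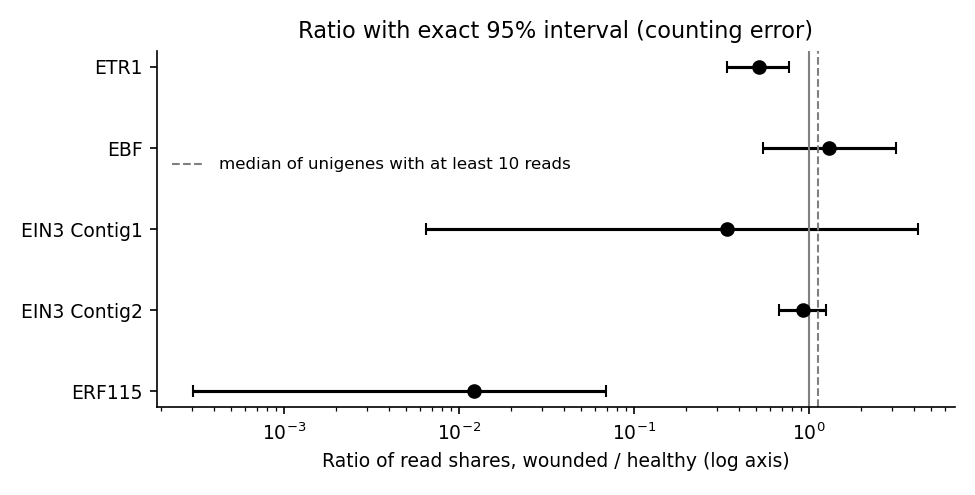
Ratio of the read share in the wounded library to that in the healthy library for each unigene on a log axis, with exact 95% intervals. The solid line is a ratio of 1. The dashed line is the median ratio of 1.12 over unigenes seen in both libraries with a sum of at least 10 reads. The intervals of ETR1 and ERF115 lie below both lines, and those of EBF and both EIN3 unigenes include them.

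Whether the 4 genes differed from each other was tested directly, since a result past the threshold in *ETR1* and not in *EIN3* does not show that these genes differ. The W and H reads of 2 genes were set against each other by Fisher's exact test, which needs no library size and does not depend on the scaling. Of the 6 pairs of genes, 3 passed the threshold in Fisher's exact test, and these 3 were the pairs with *ERF115*. The odds ratio of *EIN3* over *ERF115* was 73.6 (95% interval 12.3 to 3006, P = 6.96e-17 by Fisher's exact test, 4.18e-16 adjusted over the 6 pairs). *EBF* over *ERF115* gave 99.2 (95% interval 12.97 to 4569) and *ETR1* over *ERF115* gave 42.0 (95% interval 6.77 to 1743). *ERF115* was therefore lower in W than each of the other 3 genes, relative to H, by more than the counting error of reads taken as independent.

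The receptor and *EIN3* were not separated at that threshold. *EIN3* over *ETR1* had an odds ratio of 1.75 (95% interval 1.05 to 2.93, P = 0.0297 by Fisher's exact test, 0.0446 adjusted over the 6 pairs). *EBF* over *ETR1* had an odds ratio of 2.50 (95% interval 0.952 to 6.71, P = 0.0426 by Fisher's exact test, 0.0512 adjusted). *EBF* over *EIN3* had an odds ratio of 1.44 (95% interval 0.570 to 3.70, P = 0.523 by Fisher's exact test), which does not show that these genes moved alike. Over the 10 pairs of unigenes, 3 passed, and the 3 were those of *ERF115* with *ETR1*, *EBF* and the longer EIN3 unigene. The shorter EIN3 unigene against *ERF115* rests on 4 reads and gave P = 0.0884 by Fisher's exact test, while a chi-square test of the same reads gave P = 0.00168.

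**Figure D3:**
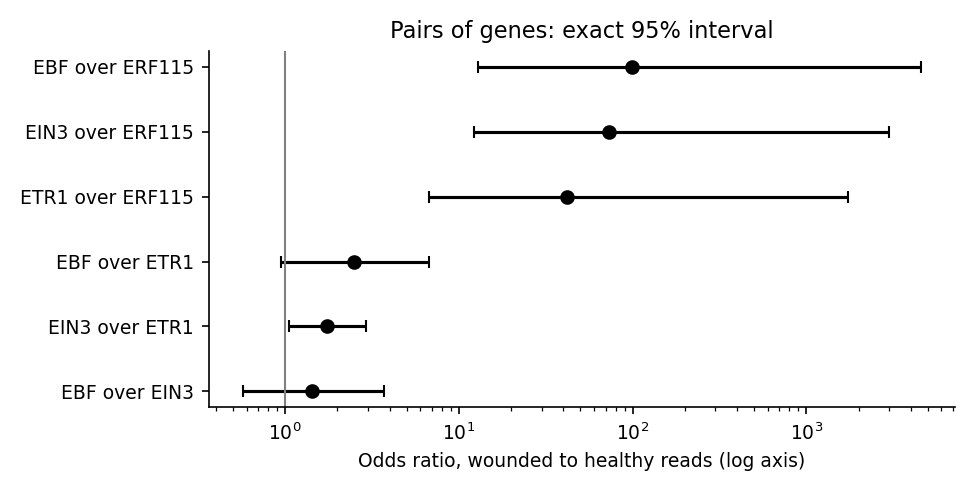
Odds ratio of wounded to healthy reads for each of the 6 pairs of genes on a log axis, the first-named gene over the second, with exact 95% intervals and a line at 1. The intervals of the 3 pairs with ERF115 begin at 6.77 or above, while those of the 3 pairs without it begin between 0.570 and 1.05.

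The order of the genes by level changed between the libraries, mainly by the place of *ERF115*. To compare levels between unigenes, RPM was divided by the length in kilobases. In W the longer EIN3 unigene led with 61.3 RPM per kilobase, before *ETR1* with 26.5, *EBF* with 14.5, the shorter EIN3 unigene with 5.37 and *ERF115* with 1.76. In H, *ERF115* led with 144.7 RPM per kilobase, before the longer EIN3 unigene with 66.4, *ETR1* with 51.3, the shorter EIN3 unigene with 15.8 and *EBF* with 11.2. The first place was clear of the second in both libraries, with a ratio of levels of 2.31 (95% interval 1.56 to 3.47) for EIN3 over *ETR1* in W and of 2.18 (95% interval 1.60 to 2.96) for *ERF115* over EIN3 in H. In W no later neighbours were separated by their intervals, while in H *ETR1* lay above the shorter EIN3 unigene by 3.25-fold (95% interval 1.07 to 16.1). In H the longer EIN3 unigene and *ETR1* had levels within 1.30-fold of each other, with a 95% interval of 0.947 to 1.78. Sequencing of sheared cDNA and incomplete assembly make levels per length approximate.

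As a share of the reads of the 4 genes together, 139 in W and 268 in H, *ERF115* made up 0.719% in W (95% interval 0.0182 to 3.94) and 31.3% in H (95% interval 25.8 to 37.3). *EIN3* took 61.2% in W (95% interval 52.5 to 69.3) and 35.8% in H (95% interval 30.1 to 41.9). *ETR1* held a like share of both, 28.1% in W and 28.7% in H, and *EBF* 10.1% in W and 4.10% in H. A share in such a sum depends on all its parts, so the level of *ERF115* moves the shares of the rest. Against *EIN3* as a fixed point, 100 reads of *EIN3* were matched by 45.9 reads of *ETR1* in W and 80.2 in H, by 16.5 reads of *EBF* in W and 11.5 in H, and by 1.18 reads of *ERF115* in W and 87.5 in H. Summed, the 4 genes stood at 328 RPM in W and 620 RPM in H, a difference of -292 RPM, of which *ERF115* made up 65.8% and *ETR1* 29.5%. Without *ERF115* the sum was 325.9 RPM in W and 425.7 RPM in H, a ratio of 0.766 (95% interval 0.609 to 0.960). Most of that remaining difference came from *ETR1*, with W minus H at -86.0 RPM, against -21.4 RPM for *EIN3* and 7.61 RPM for *EBF*.

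**Figure D4:**
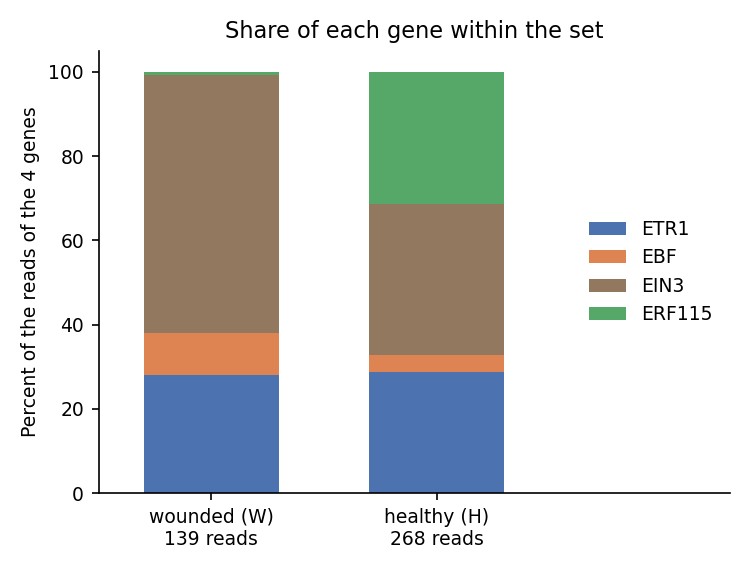
Percent of the reads of the 4 genes that belonged to each gene, in the wounded library (139 reads) and the healthy library (268 reads). ERF115 fills 0.719% of the bar of W and 31.3% of that of H, and EIN3 fills 61.2% in W and 35.8% in H.

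Of the other regulators for which the study lists primers, *ACO3* is the further ethylene gene and encodes an ACC oxidase, the enzyme of the last step of ethylene synthesis. Its primer unigene had 68 reads in W and 806 in H. In calluses given methyl jasmonate, the study reported a rise of *ACO3* by quantitative PCR. With *ACO3* counted, 3 of the 5 ethylene genes of the primer list were lower in W and 0 were higher. After adjustment over all unigenes 2 of them, *ACO3* and *ERF115*, were left. Of the 25 regulators found besides the 4 genes, 10 were lower in W, 2 were higher and 13 did not pass. Of all unigenes, 2.55% were lower and 1.84% higher, but 21 of the 25 regulators had at least 20 reads. Of the 8344 unigenes with that many reads, 28.1% passed, 1416 of them lower in W and 929 higher. After adjustment 8 of the 25 regulators were lower and 1 was higher. Of all 89137 unigenes, 1036 were then lower and 340 higher. Among the 8344 with at least 20 reads, 976 were lower and 317 higher. Their median log2 ratio (0.5 reads added) was -0.33. The median over the 5 unigenes was -0.94, the value of *ETR1*. It counts the shorter EIN3 unigene, which had 4 reads, as a full member. The median was 0.030 over all unigenes and 0.15 over those with at least 10 reads, a minimum that the shorter EIN3 unigene does not meet. The study picked these regulators, and the 4 genes with them, from the same libraries, so their direction is not independent evidence.

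Among these 25 regulators, those nearest in log2 ratio over the 2 libraries were named for each gene, a likeness of 1 ratio only. The nearest to *ERF115* was *MYB4*, with 3 reads in W and 77 in H, at a distance of 1.35 on the log2 scale. The next, *ACO3*, lay 2.26 away. The ratio of *MYB4*, 0.0398, lies within the 95% interval of that of *ERF115*, which rests on 1 read in W. The nearest to *ETR1* were *CDPK5*, a calcium-dependent protein kinase with 14 reads in W and 34 in H, and *APL2*, of the MYB family, with 11 reads in W and 29 in H. The nearest to *EIN3* were *CDPK3*, with 22 reads in W and 26 in H, and the superoxide dismutase *SODA*, with 15 reads in W and 18 in H. Those nearest to *EBF* were *MAPK5*, with 17 reads in W and 13 in H, and *APL1* and *MAPK15*, each with 17 reads in W and 14 in H.

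**Figure D5:**
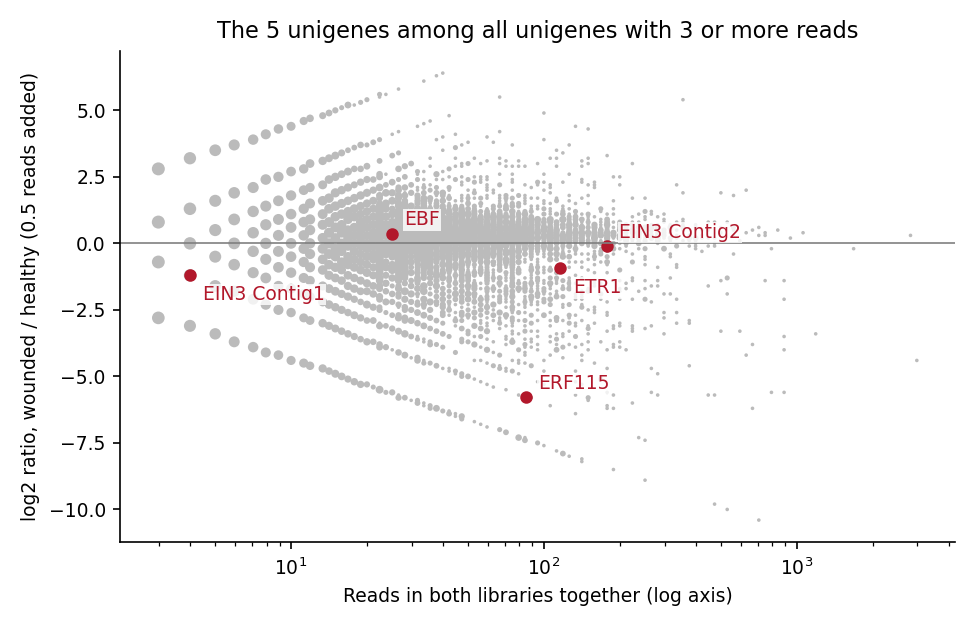
Log2 ratio of wounded to healthy read shares (0.5 reads added) against the reads of both libraries together on a log axis. Grey points are all unigenes with 3 or more reads, gathered in small bins whose size grows with their number, and red points are the 5 unigenes. ERF115 lies at -5.79 near the lower edge of the unigenes of its depth, ETR1 at -0.94 within the bulk, and EBF and EIN3 Contig2 near 0.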

How the data were processed

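RNA of wounded and healthy stems was turned into cDNA by SMART synthesis, amplified for 25 cycles and sequenced on the GS-FLX platform, 1 library per condition. The authors trimmed vector and tails, dropped reads under 100 bp, and built unigenes from W and H jointly by MIRA assembly, UIcluster 2.0 clustering and a Cap3 step within clusters. For MIRA, Cap3 and read counting the version or method is not given in the sources used here. The authors deposited whole-number counts of reads per unigene, with its length, which were used without normalization. The deposited RPM values (headed TPM in the files, not scaled by length) lay within 0.06 of the count plus 1 read over a constant per library in 100% of unigenes, and served only to recover that constant. The counts were 78.0% of it in W and 81.5% in H. A floor of 3 reads is 7.08 RPM in W and 6.94 RPM in H.

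Shares, the chi-square test without continuity correction, Fisher's exact test and Benjamini-Hochberg adjustment (over all 89137 unigenes) were computed in Python 3.11.15 with scipy 1.17.1, numpy 2.4.6 and pandas 2.3.3, figures with matplotlib 3.10.9, and TMM factors with edgeR 4.0.16 in R 4.3.3. No quasi-likelihood fit was possible without replicates. The chi-square test and the intervals were tested on simulated data. Those data were independent counts, without PCR copies or variation between pools of trees. They cannot show whether the P values and intervals hold under such sources of error. Alternatives were other tests, adjustments, library sizes, scalings, a minimum of 10 reads, 1 read added and sums over clusters. The members, lists and tests were chosen with earlier results of these data known. The genes named are the members, *ACO3* and, for each gene, the 2 other regulators nearest in log2 ratio (3 where tied).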

Additional observations from a re-analysis of the deposited data

How the results depend on the processing

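No paired analysis was possible because each condition has 1 library, and no library could be left out. *ERF115* stayed lower in W, with ratios of 0.0106 to 0.0240, and passed under every alternative run. *ETR1* stayed lower, with ratios of 0.450 to 0.524, and passed under every alternative except adjustment over all unigenes and over all clusters, where its ratio of 0.517 had a chi-square P of 0.0325 over unigenes and 0.0240 over clusters after Benjamini-Hochberg adjustment. *EBF* and *EIN3* did not pass under any alternative run and kept their directions. Ratios ran from 1.13 to 1.30 for *EBF* and from 0.803 to 0.923 for the longer EIN3 unigene. For the sum of both EIN3 unigenes they ran from 0.787 to 0.904, and for the shorter one from 0.296 to 0.510. The unigenes that differed numbered 3918 as counted, 1376 with adjustment over all unigenes and 1961 with adjustment over those with at least 10 reads. Without adjustment, 3209 of the unigenes with at least 10 reads passed. The share of calls that were higher in W was 42.0% as counted, 25.2% after TMM scaling and 28.2% after median-ratio scaling. That median was taken over unigenes seen in W and in H with a sum of at least 10 reads. The clusters of *ETR1*, *EBF* and *ERF115* hold no other unigene, so summing over clusters changed *EIN3* alone. Of the 10 pairs of unigenes, 3 passed by Fisher's exact test, 4 by a chi-square test and 3 with the adjustment over pairs. The adjustments over pairs and over all clusters and the minimum of 10 reads without adjustment were chosen after the data were seen.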
